A study of Mus musculus with 24 samples.

Results

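Pre-granulosa cells and Sertoli cells, the supporting cells of the fetal ovary and testis of the mouse, were compared by RNA sequencing at the embryonic stage E13.5 (days after mating). The comparison used 6 of the 24 libraries of the series, 3 of XX cells and 3 of XY cells, chosen by sex and stage alone, and all 32040 listed genes. The whole series runs from E11.5 to E15.5 over 4 stages, with 3 libraries per sex and stage. The XX embryos carried the Tg(Enh8-mCherry) transgene, and the XY embryos came from the SOX9-IRES-GFP line. The shared inputs were fetal gonads, about 40000 sorted cells per sample and polyadenylated RNA amplified with a kit for small inputs. What drives Enh8, the sorting gates and the number of embryos per library are not given in the sources used here. Sex, mouse line and fluorophore changed together, so their parts in any XX minus XY difference cannot be told apart. Nothing says that the 3 libraries of a group came from separate litters, so p-values measure the spread between libraries only. That spread was estimated from all 24 libraries of the series together.

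Supporting cells of both sexes arise from the same progenitors of the early gonad. In XY embryos SRY switches on SOX9, and the cells become Sertoli cells that enclose germ cells in cords and secrete AMH, the hormone that makes the Müllerian duct regress. In XX embryos WNT4 and RSPO1 act through beta-catenin, and with FOXL2 and RUNX1 they mark the pre-granulosa fate. GATA4 is a transcription factor that both cell types are known to need.

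Levels are given as CPM, counts scaled by library size, as the mean ± SD of 3 libraries or for each library in the order of its replicate number. Total counts were 12872560 to 23601468 in the XX libraries and 19316255 to 30696512 in the XY libraries, so 3 counts, taken as the detection floor, equal at most 0.2265 CPM. The floors cover counting error only, while SDs, SEs and p-values take in the spread between libraries. One field of the label of XX E13.5 replicate 1 gives E12.5 while its title gives E13.5. Its Spearman correlation averaged 0.9932 with the other 2 XX E13.5 libraries and 0.9773 with the XX E12.5 libraries, and it was kept at E13.5. The other 2 averaged 0.9725 and 0.9714 with the XX E12.5 libraries, so it was the XX E13.5 library most like them. Counts without it are given beside each total. The defining markers were found on the side their labels give. Foxl2, at 16.8 to 22.9 CPM in XX, had no count in any XY library. Amh, at 4302 to 5117 CPM in XY, had at most 4 counts in any XX library. Gata4 was above 146 CPM in all 6 libraries.

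The 250 bases before the start of 4 genes are shown as examples of promoters of genes with large differences, chosen after their values were seen. Dhh and Gjb2 were higher in XY, and Pld5 and Upk3b were higher in XX. Sequences are from RefSeq (GRCm38.p6, the same assembly as mm10), read 5′ to 3′ in the direction of each gene. Capitals mark AGGTCA (the half-site read by nuclear receptors such as NR5A1) or CTTTGA (a TCF/LEF motif) on either strand.
Dhh, chr15:98898541-98898790, minus strand: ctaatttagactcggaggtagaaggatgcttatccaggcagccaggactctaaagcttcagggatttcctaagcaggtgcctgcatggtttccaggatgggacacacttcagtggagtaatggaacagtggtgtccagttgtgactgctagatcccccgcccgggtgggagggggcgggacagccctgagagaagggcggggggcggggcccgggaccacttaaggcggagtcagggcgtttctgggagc
Gjb2, chr14:57104703-57104952, minus strand: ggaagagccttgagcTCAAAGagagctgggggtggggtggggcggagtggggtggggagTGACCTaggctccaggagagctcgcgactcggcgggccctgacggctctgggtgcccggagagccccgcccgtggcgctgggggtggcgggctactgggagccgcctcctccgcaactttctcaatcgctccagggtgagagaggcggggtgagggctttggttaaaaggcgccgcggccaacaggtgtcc
Pld5, chr1:176213943-176214192, minus strand: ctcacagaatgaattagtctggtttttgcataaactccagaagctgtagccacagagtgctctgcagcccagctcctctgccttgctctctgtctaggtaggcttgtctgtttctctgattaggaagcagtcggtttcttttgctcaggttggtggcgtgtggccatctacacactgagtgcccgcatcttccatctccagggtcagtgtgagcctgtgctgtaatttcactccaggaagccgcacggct
Upk3b, chr5:136038246-136038495, plus strand: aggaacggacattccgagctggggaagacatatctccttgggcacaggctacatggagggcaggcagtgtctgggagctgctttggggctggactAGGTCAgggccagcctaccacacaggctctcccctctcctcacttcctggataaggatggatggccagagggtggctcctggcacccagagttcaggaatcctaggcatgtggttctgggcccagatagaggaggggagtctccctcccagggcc
The Pld5 window lies inside the gene's GENCODE span, before a RefSeq start, and overlaps no GENCODE exon. In these windows the Gjb2 promoter held 18 CpG pairs and 69.2% G+C, while that of Upk3b held 2 CpG pairs and 60.8% G+C. The median over 27025 listed promoters was 6 CpG pairs and 52% G+C.

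AGGTCA stood in the promoters of Gjb2 and Upk3b, CTTTGA in that of Gjb2, and neither in those of Dhh and Pld5. The GATA motif AGATAA, the SOX motif AACAAT and the forkhead motif GTAAACA were in none of the 4, which says only that these letters are not in these windows. Both strands were searched, and the 2 matches in the Gjb2 window did not overlap. AGGTCA was found in 13.8% of all listed promoters, in 10.9% of 12425 promoters of genes tested, in 13.2% of 1453 promoters of genes higher in XX by a log2 difference of at least 2, and in 11.7% of 952 promoters of genes higher in XY by as much. For CTTTGA these shares were 14%, 11.1%, 13.6% and 12%. For AACAAT they were 9.65%, 5.22%, 5.44% and 6.62%, for AGATAA 10.3%, 6.12%, 8.19% and 7.25%, and for GTAAACA 3.09%, 2.13%, 2.13% and 2.73%. The shares in both directions were at or above those of the genes tested, no test was made of them, and a match is a description of letters, not a bound site.

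Most genes differed between the 2 kinds of cell at E13.5. Of 16190 genes tested, 10706 (66.1%) passed the edgeR quasi-likelihood test at an adjusted p under 0.05, and such genes are called below. The called genes were 5307 higher in XX (32.8%) and 5399 higher in XY (33.3%), and these shares are the background against which each gene list is read. With a log2 difference of at least 1 in addition, 3188 genes were higher in XX (19.7%) and 2883 in XY (17.8%). Differences beyond 5 on the log2 scale were called for 530 genes in XX (3.27%) and 240 in XY (1.48%). The median log2 difference over all tested genes was 0.005, and total counts alone as the scaling moved it to 0.161. Without XX E13.5 replicate 1, 10251 genes were called, of which 9974 were called in the same direction with all libraries. The 3 XX libraries did not overlap the 3 XY libraries for 12426 genes (76.8%).

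**Figure D1:**
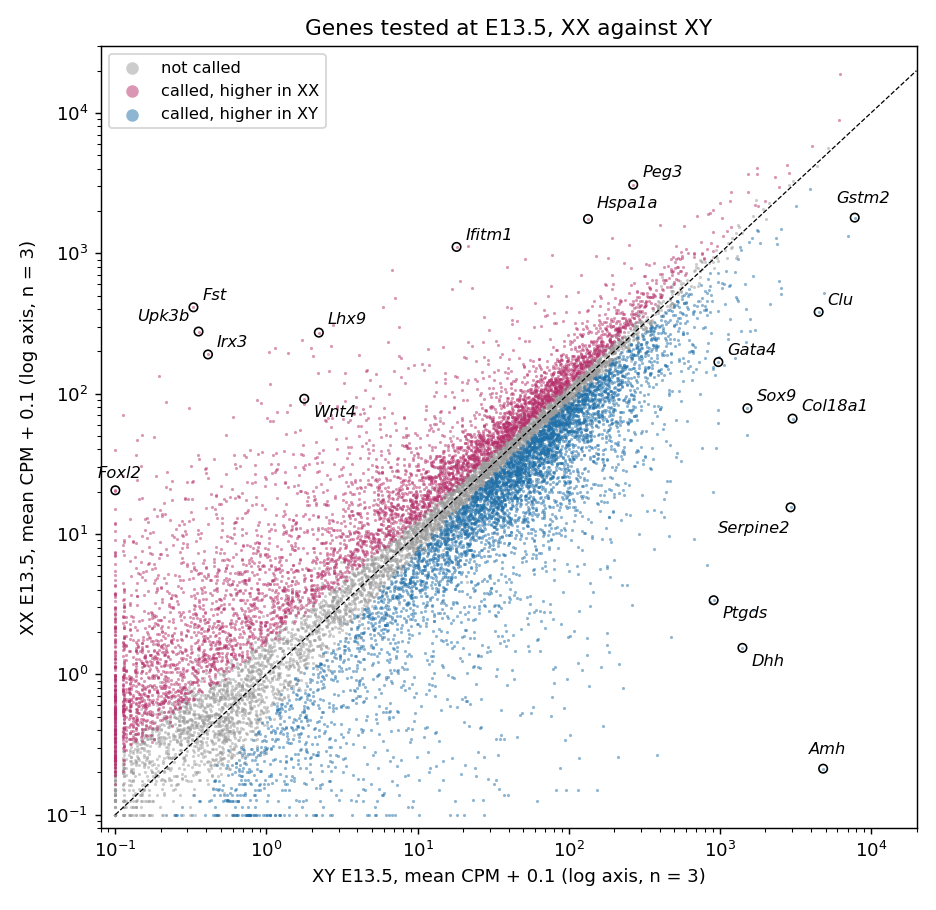
Mean CPM plus 0.1 of each tested gene at E13.5, XY on the horizontal and XX on the vertical log axis (n = 3 each), coloured by call, with the line of equal level dashed. Amh at 4822 CPM in XY lies farthest below the line, and Fst, Upk3b, Irx3 and Foxl2 lie far above it.

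Genes that drive the Sertoli fate were higher in XY. Of 7 Sertoli regulators, 5 were higher in XY (Sox8, Sox9, Sox10, Dmrt1 and Sry) and 2 in XX (Gadd45g and Nr0b1), with a median log2 difference of -4.38, or -4.28 with genes under the floor at their bound. Sox9 was at 1532, 1472 and 1559 CPM in XY and at 69.8, 72.5 and 93.4 CPM in XX, which is given as a description because the XY line carries its reporter. Sox8, a relative that can act beside SOX9, was at 125, 123 and 147 CPM in XY and at 1.48, 1.78 and 1.89 CPM in XX (log2 difference -6.25, SE 0.28, edgeR adjusted p 5.47e-14). Sox10 was at 19.9, 28.3 and 33.3 CPM in XY and had no count in XX, at least 142-fold higher in XY against the floor. Dmrt1, which maintains the testis fate after birth, was at 117, 126 and 136 CPM in XY and at 5.41, 6.23 and 6.49 CPM in XX (log2 difference -4.38, SE 0.25, edgeR adjusted p 4.26e-12). Sry itself was near the floor in XY, at 0.0797 to 0.214 CPM, and at 0 in XX. Its call was lost without XX replicate 2 or XY replicate 3, and in limma-trend on log2(TPM + 1) (adjusted p 0.114). Gadd45g, needed upstream of Sry, was 164.8 CPM in XY against 313 in XX.

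Secreted and structural products of Sertoli cells lay far apart between the sexes. Of 26, 25 were higher in XY, 24 of them by a log2 difference of at least 1, none was higher in XX, and the median was -5.40 (-5.28 with genes under the floor at their bound). Amh (GRCm38 chr10:80805243-80807648) was at 5117, 4302 and 5046 CPM in XY and at 0.296, 0.0415 and 0 CPM in XX (log2 difference -15.49, SE 0.78, edgeR adjusted p 9.42e-13). The XY values exceeded each XX value by more than 4 orders of magnitude. Dhh (chr15:98891152-98898540), the Hedgehog ligand that Sertoli cells send to neighbouring cells, was at 1330, 1451 and 1450 CPM in XY and at 1.41, 1.41 and 1.51 CPM in XX. Ptgds, which makes prostaglandin D2, was at 972, 870 and 886 CPM in XY and at 3.11, 3.53 and 3.17 CPM in XX.

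Per length of transcript, in the authors' TPM, Amh reached 4374 ± 447 in XY. Defb19, a defensin, was at 3103 ± 320 TPM, Cst9, a cystatin, at 1956 ± 214, Ptgds at 1919 ± 121 and Dhh at 770 ± 44.3. Amh thus stood above Defb19 by more than the spread, while Cst9 and Ptgds did not differ beyond it. Gdnf, a growth factor for male germ cells, was at 31.9 ± 4.95 CPM in XY and 0.0642 ± 0.078 in XX. Cyp26b1, which degrades retinoic acid and so shields testicular germ cells, was at 164 ± 21 CPM in XY and 1.02 ± 0.495 in XX. Clu, clusterin, was at 382 ± 28.3 CPM in XX and 4504 ± 167 in XY, a ratio of 11.8. The single product that was not called was Cst8, at 196, 228 and 211 CPM in XX and 188, 202 and 197 CPM in XY.

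Regulators of the pre-granulosa fate were higher in XX. Of 13 tested, 12 were higher in XX, 11 by a log2 difference of at least 1, with a median of 3.86. Foxl2 (chr9:98955288-98958543) was at 22.9, 21.4 and 16.8 CPM in XX, at least 156-fold above the floor of XY. Irx3 was at 187, 202 and 181 CPM in XX and at 0, 0.359 and 0.572 CPM in XY (log2 difference 9.07, SE 1.03, edgeR adjusted p 2.84e-07). Lef1, the partner of beta-catenin, was at 204, 193 and 185 CPM in XX and at 1.55, 1.28 and 1.04 CPM in XY. These genes had XX libraries far above every XY library. Msx1 was at 198 CPM in XX against 0.94 in XY on average. Runx1, an ovarian partner of FOXL2, was at 61.2, 71.2 and 67.1 CPM in XX and at 5.31, 4.26 and 4.29 CPM in XY (log2 difference 3.86, SE 0.15, edgeR adjusted p 6.77e-15). Foxo1 was the regulator that was higher in XY, at 15.4 CPM against 7.89 in XX on average.

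The products of pre-granulosa cells separated nearly as far. Of 14, 11 were higher in XX, Jag1 and Gja1 were higher in XY, and Pdpn was not called, with a median log2 difference of 3.66. Fst (chr13:114452290-114458951), follistatin, which binds and blocks activin, was at 430, 435 and 370.5 CPM in XX and at 0.276, 0.159 and 0.25 CPM in XY (log2 difference 10.80, SE 0.68, edgeR adjusted p 3.11e-11). Rspo1 was at 32.6, 29.9 and 25.8 CPM in XX and at most 0.5 CPM in XY. Wnt4 was at 87.7, 101 and 87 CPM in XX and at 0.885, 2.11 and 2.04 CPM in XY. All 3 XX libraries exceeded all 3 XY libraries for each of these genes. Per length, Fst reached 335 ± 34.5 TPM in XX, above Wnt4 at 30.9 ± 2.27, Rspo1 at 25.7 ± 3.17 and Foxl2 at 8.90 ± 1.44. Kitl, the ligand for the germ cell receptor KIT, was high in both, at 903 ± 36 CPM in XX and 510.4 ± 1.95 in XY.

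**Figure D2:**
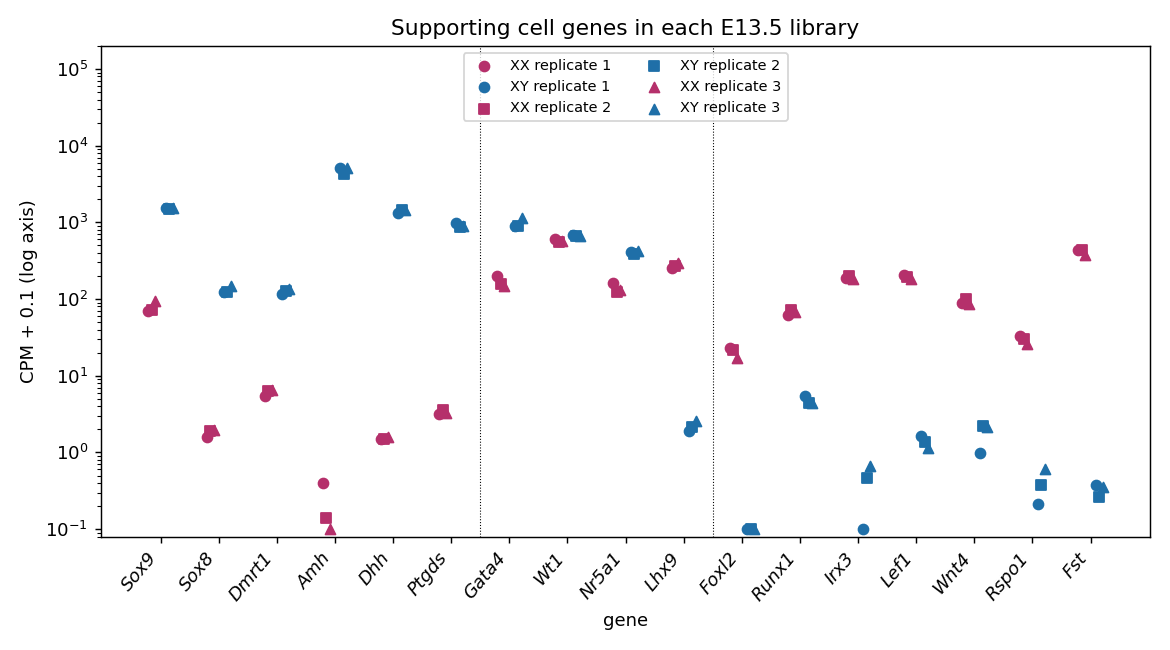
CPM plus 0.1 on a log axis of 17 supporting cell genes in each of the 6 libraries, with Sertoli genes left, shared gonadal factors in the middle and pre-granulosa genes right of the dotted lines. Sertoli genes sit high in the 3 XY libraries, pre-granulosa genes sit high in the 3 XX libraries, and Wt1 averages 578 CPM in XX against 673 in XY.

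Transcription factors known from the gonads of both sexes did not move as a block. Of 15 tested, 4 were higher in XX, 6 higher in XY and 5 not called, and the median log2 difference was -0.22. Gata4 (chr14:63198922-63271692) was at 200.1, 156 and 146 CPM in XX and at 898, 902 and 1133 CPM in XY (log2 difference -2.54, SE 0.23, edgeR adjusted p 4.23e-09). The lowest XY library thus lay more than 4 times above the highest XX library. Its relative Gata6 went the other way, at 69.2 ± 2.77 CPM in XX and 29.7 ± 6.50 in XY (log2 difference 1.21). Lhx9, a regulator of the early gonad, was at 272 ± 17.7 CPM in XX and 2.12 ± 0.323 in XY. Nr5a1, which controls steroid and Amh genes, was at 140 ± 21.5 CPM in XX and 406 ± 20.8 in XY. Wt1, which both cell types need, was at 578 ± 24.4 CPM in XX and 673 ± 7.79 in XY and was not called (adjusted p 0.105). Amhr2, the receptor for AMH, was at 582 ± 41.3 CPM in XX and 717 ± 14.5 in XY and was not called either (adjusted p 0.0832). Both were called toward XY without the E11.5 libraries, at adjusted p 0.0214 and 0.00904.

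WNT signalling genes were mostly higher in XX. Of 36, 22 lay on the XX side and 8 on the XY side, and the median log2 difference was 1.48. Among the ligands Wnt5a, Wnt9a and Wnt2b were higher in XX with Wnt4, while Wnt6 was higher in XY, at 1294 CPM against 472 CPM in XX. Among the receptors Lgr4 was at 356 CPM in XX against 69.3 in XY, and Lrp5 was at 13 CPM in XX against 66.2 in XY. Among genes known as WNT targets, Axin2 was at 36.3, 33.7 and 33.7 CPM in XX and at 3.59, 4.38 and 4.29 CPM in XY (log2 difference 3.07). Nkd1 (log2 difference 4.47) and Sp5 (3.74) were also higher in XX, with no overlap between the sexes. Ctnnb1, beta-catenin itself, was higher in XY, at 363 CPM against 223 CPM (log2 difference -0.70). The secreted WNT inhibitors differed too, Sfrp2 being higher in XX (log2 difference 5.40) and Wif1 in XY (-2.59).

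FGF signalling genes were mostly higher in XY. Of 20, 11 were higher in XY and 3 in XX, with a median log2 difference of -0.94. Fgf9, a ligand that sustains Sox9, was at 21.2, 20.4 and 21 CPM in XY and at 1.48, 1.95 and 2.49 CPM in XX. Genes known to respond to FGF receptors showed the same order. Etv4 had a log2 difference of -5.28, Etv5 of -4.98, Spry4 of -4.18 and Dusp6 of -2.42. The receptor Fgfr2 was higher in XX, at 160 ± 15.3 CPM against 9.39 ± 1.98 (log2 difference 4.08, SE 0.34, edgeR adjusted p 1.84e-09). Fgfr1 and Fgfr3 were the other members higher in XX, and the call of Fgfr3 was lost in limma-trend on log2(TPM + 1) (adjusted p 0.349) and log2(TPM + 0.1) (adjusted p 0.13).

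Hedgehog genes were called in both directions. Of 14 tested, 5 were higher in XY and 7 in XX, and the median was 1.68. The ligand Dhh was higher in XY as above, and Ptch1, its receptor and a target, was at 85.9, 80.4 and 84.4 CPM in XY and at 21.9, 21.5 and 31.0 CPM in XX (log2 difference -1.76, SE 0.26, edgeR adjusted p 6.49e-06). The co-receptors Boc (log2 difference 4.78) and Gas1 (4.59) and the effector Gli2 (3.34) were higher in XX.

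The TGF-beta, activin and BMP list held large differences in both directions. Of 36, 12 were higher in XX, 10 in XY and 14 not called, with a median of -0.01. Among the ligands Bmp2 was at 89.6 CPM in XX against 0.771 in XY. The inhibin subunits Inha and Inhbb were higher in XY, and Inhbb was at 22.5 ± 1.17 CPM in XX and 149 ± 27.3 in XY. Among the antagonists Fst was higher in XX, as above. The activin receptor Acvr1b was higher in XY (log2 difference -2.68).

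Notch genes were higher in XX for 5 of 19 tested and in XY for 7, with a median of 0. The ligand Jag1 and the receptor Notch1 were higher in XY, at 25.5 and 16.9 CPM against 5.95 and 0.858 CPM. The target Hes5 was at 24.2, 22.6 and 25 CPM in XY and at most 0.227 CPM in XX. The target Hey1 went the other way, at 49.4 ± 4.16 CPM in XX and 3.97 ± 0.219 in XY, and Hes1 was also higher in XX.

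Retinoic acid genes were higher in XX for 10 of 18 tested and in XY for 4, with a median of 1.52. Dhrs3, which turns retinal back to retinol, was at 467, 494 and 476 CPM in XX and at 5.75, 8.41 and 6.86 CPM in XY (log2 difference 6.09, SE 0.17, edgeR adjusted p 9.25e-17). Of the enzymes that make retinoic acid, Aldh1a1 was higher in XY (log2 difference -2.11), and Aldh1a2 (1.20) and Aldh1a3 (1.39) were higher in XX. Among the receptors Rara was higher in XY and Rarb in XX. Prostaglandin genes were higher in XX for 8 of 15 tested and in XY for 3, with a median of 0.87. After Ptgds, the XY side held Ptges, and Ptger3 was higher in XX (log2 difference 5.04).

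Genes of steroid synthesis were higher in XX for 9 of 14 tested and in XY for 3, with a median of 1.02. The XY genes were Hsd17b3, Hsd17b1 and Fdxr. Hsd17b3, the testicular enzyme that turns androstenedione into testosterone, was at 378, 372 and 393 CPM in XY and at 0.148, 0.125 and 0.227 CPM in XX. The XX genes included Cyp11a1, which starts steroid synthesis, at 24.5 ± 3.56 CPM against 5.42 ± 1.18. They also included Cyp11b1, an enzyme of the adrenal cortex, at 14.1, 14.1 and 10.8 CPM in XX and at most 0.143 CPM in XY.

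Cholesterol synthesis genes were higher in XY for 18 of 27 and in XX for 3, with a median of -0.70. The sterol sensor genes Scap (log2 difference -2.88) and Srebf2 (-2.16) and the enzyme gene Dhcr7 (-1.81) were among those higher in XY. Those higher in XX included Pmvk and Sc5d. Glycolysis genes split evenly, with 7 of 21 higher in XX, 7 higher in XY and a median of 0.09. Aldoc had the largest difference toward XX (log2 2.22) and Slc16a3, a lactate exporter, the largest toward XY (-2.47).

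Of 30 cell cycle genes, 16 were higher in XY, 11 of them by a log2 difference of at least 1, and 5 were higher in XX. The median was -0.45. Genes of mitosis were among those higher in XY. Cdk1 was at 108, 75.3 and 68.5 CPM in XY and at 40.8, 40.9 and 41.2 CPM in XX (log2 difference -1.03), and Bub1 had a difference of -1.71. Among replication genes, Mcm7 was called toward XY, at 151 ± 6.49 CPM in XX and 201 ± 15.2 in XY (log2 difference -0.42). Mcm6 was called toward XX (0.36), and Mcm2 was not called. XY replicate 1 was the highest XY library for the mitotic genes named.

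Of 14 tested inhibitors of cyclin-dependent kinases, D cyclins and their partners, 7 were higher in XX and Rbl2 in XY, with a median of 0.20. Cdkn1b, which encodes p27, was at 191, 211 and 237 CPM in XX and at 14.5, 14.5 and 14.8 CPM in XY (log2 difference 3.86, SE 0.31, edgeR adjusted p 1.22e-09). Cdkn1a was at 70.0 ± 3.28 CPM in XX and 2.57 ± 0.264 in XY. Cdkn1c was at 588, 507 and 391 CPM in XX and at 34.3, 116 and 136 CPM in XY, with a wide spread in both groups.

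Collagens formed opposite sets. Of 29, 14 lay on the XX side and 10 on the XY side, and the median was 0.74. Cartilage-type collagens were on the XY side. Col9a3 was at 1815, 1316 and 1807 CPM in XY and at 3.26, 2.45 and 2.57 CPM in XX (log2 difference -9.24, SE 0.34, edgeR adjusted p 8.70e-15). Col9a1 (-9.66), Col2a1 (-7.58) and Col9a2 (-5.58) were also higher in XY. Among other types, the XY side held Col14a1 (-8.14) and Col18a1, the latter at 3028 ± 479 CPM in XY against 66.2 ± 6.83 in XX. The XX side held fibrillar collagens such as Col1a2 (4.23) and Col3a1 (4.10), which are also markers of interstitial cells. The summed CPM of the 13 interstitial markers was 415 to 531 in XX and 141 to 156 in XY, and its part in this difference was not tested.

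Basement membrane genes were higher in XY for 14 of 28 tested and in XX for 10, with a median of -0.47. Tinagl1 was at 443, 441 and 433 CPM in XY and at 20.2, 19 and 20.2 CPM in XX (log2 difference -4.47). Sparc (-1.95), Lama4 (-3.52) and the laminin receptor Dag1 (-2.22) were also higher in XY. Junction genes were higher in XY for 15 of 29 and in XX for 4, with a median of -0.77. They included Gjb2, at 213, 207 and 218 CPM in XY and at most 0.302 CPM in XX. Gja1, the main gap junction gene, was at 2141 ± 154 CPM in XY and 436 ± 3.02 in XX. Cldn11, a claudin of Sertoli tight junctions, was at 171 CPM in XY against 18.8 in XX. Axon guidance genes were higher in XX for 17 of 39 and in XY for 12, with a median of 0.28. Ligands and receptors of this family were on both sides, with Efna1 (log2 difference 5.45) and Plxna2 (3.93) higher in XX and Robo1 (-4.47) and Sema4a (-3.66) higher in XY.

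**Figure D3:**
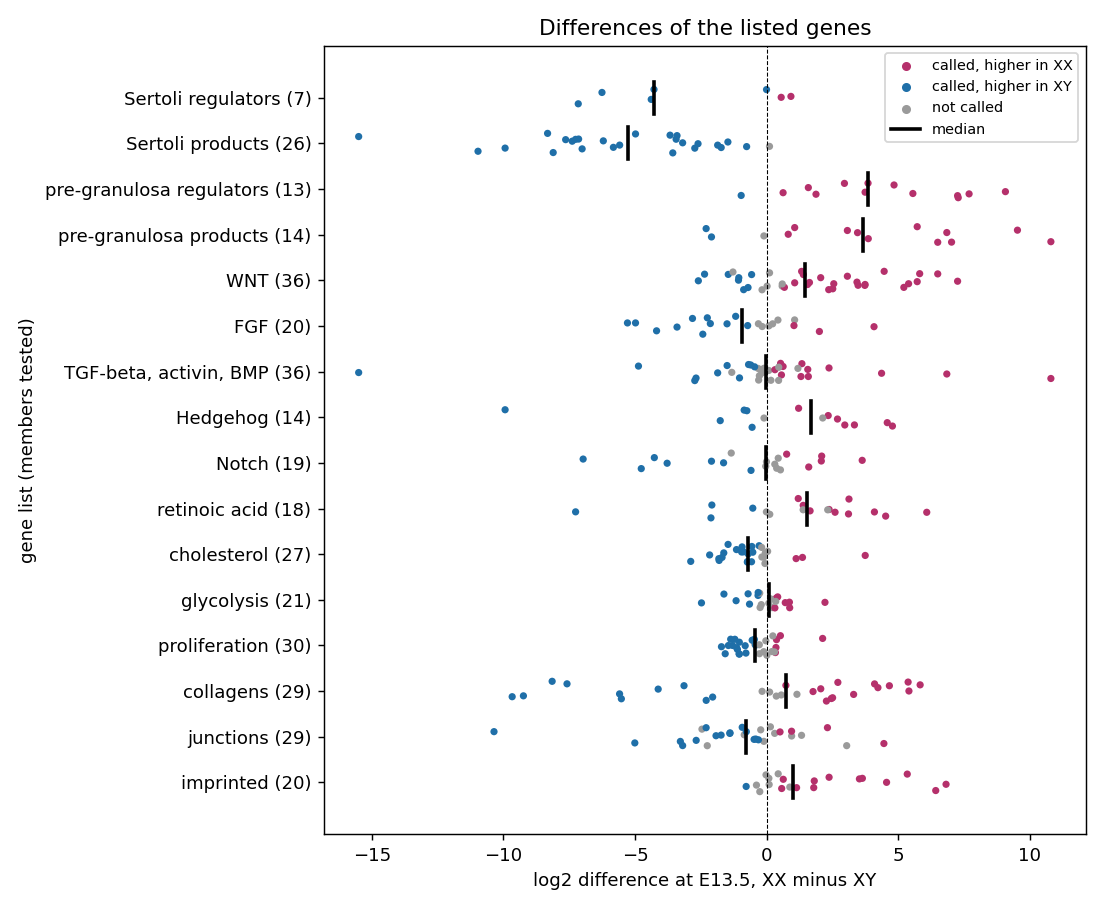
Log2 difference at E13.5 (XX minus XY) of each tested member of 16 gene lists, coloured by call, with the median of each list as a black bar. Genes with all libraries of the lower group at or under 3 counts are drawn at their bound, medians run from -5.28 for Sertoli products to 3.86 for pre-granulosa regulators, and the WNT median of 1.48 and FGF median of -0.94 lie on opposite sides of 0.

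Imprinted genes were mostly higher in XX. Of 20, 12 were higher in XX and Meg3 in XY, with a median of 1.01. The call of Meg3 was lost without any of XX replicates 1 and 2 or XY replicates 1 and 2. With all libraries it was lost under DESeq2 size factors, total counts alone, both other count filters and limma-trend on log2(TPM + 1), at adjusted p 0.0516 to 0.0959. H19 was at 807, 734 and 724 CPM in XX and at 5.58, 6.38 and 7.93 CPM in XY (log2 difference 6.82, SE 0.25, edgeR adjusted p 3.49e-15). Its neighbour Igf2, a growth factor, was at 202, 227 and 230.2 CPM in XX and at 3.26, 1.95 and 2.54 CPM in XY. Peg3 was at 3073, 3097 and 3074 CPM in XX and at 260, 276 and 265 CPM in XY. The XX libraries lay above the XY libraries for each of these genes, whether the active copy is the maternal one (H19) or the paternal one (Igf2, Peg3). Mest (log2 difference 3.64) and Zim1 (5.35) followed.

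Chromatin modifier genes were called in each direction for 6 of 25, with a median of 0.02. Cbx2, a Polycomb gene needed for testis formation, was at 20 ± 2.28 CPM in XX and 63.8 ± 3.38 in XY, and Kdm3a, which acts on the Sry locus, was higher in XX (log2 difference 1.29). All 5 Y-linked genes tested lay on the XY side, and Ddx3y was at 151 to 157 CPM there and at most 0.148 CPM in XX. Of 6 genes that escape X inactivation, 2 were higher in XX (Xist and Pbdc1) and Kdm5c in XY. Over 615 X-linked genes tested, 36.3% were higher in XX and 30.1% in XY, against 32.7% and 33.5% of 15416 autosomal genes. Hormone receptor genes were higher in XX for 8 of 14 and in XY for 2 (Fshr and Thra), with a median of 1.43. Esr1 was at 45.1 CPM in XX against 2.03 in XY, and Fshr at 9.14 CPM in XY and at most 0.0415 CPM in XX.

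Outside the lists, genes were named by the size of their difference or their level. The largest fitted log2 differences toward XX were, in order, in Pld5, Foxl2, Chrm4, Nmnat2, C1qc, A1bg, Fst, Ereg, Calb1, Upk3b, Ly6d and Ptpro. Those from Pld5 to A1bg had no count in XY, so their rank comes from the fit and not from a measured ratio. Against the floor, C1qc was at least 89.3-fold and A1bg at least 78.9-fold higher. The measured ratios were 1801 for Fst, 1397 for Calb1 and 1084 for Upk3b. Pld5 was at 36.4, 39.8 and 42.0 CPM in XX and had no count in XY, at least 301-fold higher against the floor. Chrm4, a muscarinic receptor, was at least 153-fold higher and Nmnat2, an enzyme of NAD synthesis, at least 114-fold. Calb1, a calcium-binding protein, was at 139, 126 and 134 CPM in XX and at 0.0553, 0.159 and 0.0715 CPM in XY. Toward XY, Miox was at 22.4, 19.2 and 18.9 CPM with no count in XX, at least 106-fold higher, and Magec2 was at least 94.4-fold higher. Islr2, Bpifa6, Ankrd63 and Etd completed that set beside genes named above. The libraries of the other sex were at or near 0 for all of these genes.

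Among genes with a log2 difference of at least 2, the highest levels in XX after Peg3 were those of Hspa1a, Laptm4b, Soat1, Lzts1, Ifitm1, Mest, Dnajb1, Acaa2 and Tmsb4x. Lzts1 was at 1111, 1130 and 1135 CPM in XX and at 18.6, 22.7 and 23.0 CPM in XY, a ratio of 52.5. Soat1, which esterifies cholesterol, was at 1146 CPM in XX against 249 in XY. Hspa1a and Dnajb1 encode chaperones of the heat shock response. Hspa1a was at 1706, 1820 and 1740 CPM in XX and at 137, 129 and 136 CPM in XY. In XY the highest were Gstm2, Maged1, Gstm1, Amh, Clu, Col18a1, Serpine2, Gatm, Atp1b2 and Gja1. Gstm2, a glutathione transferase, was at 7304, 8190 and 7911 CPM in XY and at 1869, 1817 and 1694 CPM in XX. Serpine2, a secreted protease inhibitor, was at 2935 CPM in XY against 15.4 in XX, a ratio of 191.

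Markers of other cell types that a gonad holds had a higher summed level in the XX libraries for each of 7 lists, though not each marker was called. In bulk samples fewer cells of a type and less RNA per cell cannot be told apart. Of 10 markers of the surface epithelium, 9 were higher in XX and Krt8 was not called, with a median log2 difference of 2.96 (1.56 with genes under the floor at their bound) and a summed CPM of 1078 to 1110 in XX and 463 to 503 in XY. Upk3b, a defining marker, was at 265, 278 and 287 CPM in XX and at most 0.465 CPM in XY, while Msln, also a marker of that layer, was at most 0.789 CPM in XX. Of 13 interstitial markers, 9 were higher in XX and 2 in XY (Ptch1 and Cspg4), and the median was 3.76. Pdgfra, a receptor of stromal cells, was at 78.3, 69.4 and 90.2 CPM in XX and at 2.76, 2.43 and 3.25 CPM in XY.

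Blood cell genes also differed. Of 9 erythroid markers, 6 were higher in XX and Alas2 in XY, with a median of 4.62 (4.17 at the bounds). Their summed CPM was 767 to 907 in XX and 41.5 to 61.3 in XY. Of 11 immune markers, 10 were higher in XX and Mrc1 in XY, with a median of 5.76 (4.07 at the bounds) and a summed CPM of 52.8 to 66 in XX and 7 to 7.97 in XY. C1qa and C1qc, complement genes of macrophages, had no count in any XY library. The call of Mrc1 was lost without XX replicate 1, XX replicate 2, XY replicate 1 or XY replicate 2. With all libraries it was lost in edgeR with total counts alone (adjusted p 0.058) and in limma-trend on log2(TPM + 1) (adjusted p 0.105).

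Of 8 steroidogenic markers, 7 were higher in XX and Insl3 was not called, with a median of 2.04 and a summed CPM of 209 to 220 in XX and 85.2 to 89.8 in XY. Insl3, a defining Leydig cell gene, was at most 0.518 CPM in any library. Of 12 germ cell markers tested, 6 were higher in XX and Utf1 in XY, with a median of 1.65 and a summed CPM of 55.1 to 65.8 in XX and 29.8 to 34.9 in XY. Of 10 endothelial markers, 3 were higher in XX and 2 in XY (Pecam1 and Cdh5), with a median of 1.02 and a summed CPM of 62.5 to 70.1 in XX and 34.7 to 38.2 in XY. Cldn5, which defines endothelium, was at most 0.0755 CPM. The call of Pecam1 was lost without any E13.5 library other than XX replicate 1. It was also lost in every alternative fit of all libraries. The adjusted p ran from 0.0619 (edgeR with a replicate block) to 0.409 (limma-trend on log2(TPM + 0.1)). The part of these cells in the differences above was not tested.

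Of 15 genes of the early response to cell dissociation, 7 were higher in XX, Ier3 was higher in XY and 7 were not called, with a median of 1.01 and a summed CPM of 10727 to 12986 in XX and 4673 to 5834 in XY. Jun was at 2517, 2768 and 2885 CPM in XX and at 1201, 1125 and 1222 CPM in XY (log2 difference 1.20). The call of Ier3 was lost without XX replicate 1, XX replicate 2 or XY replicate 1. With all libraries it was lost in edgeR with total counts alone (adjusted p 0.0648). The part of this response in the chaperone values above was not tested.

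**Figure D4:**
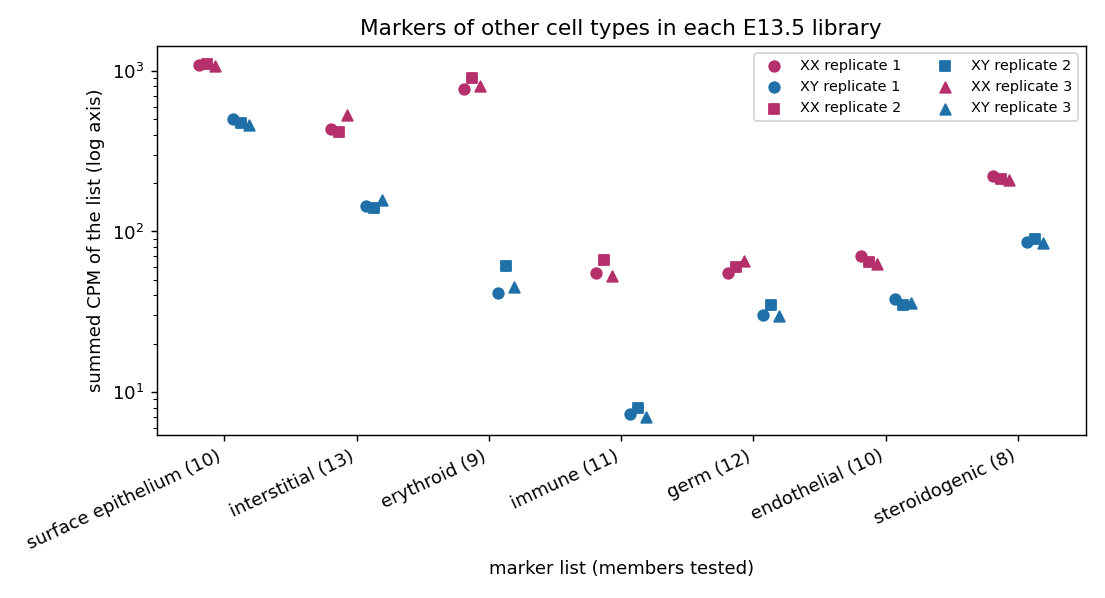
Summed CPM on a log axis of 7 lists of markers of other cell types in each E13.5 library. The 3 XX libraries lie above the 3 XY libraries for every list, for example 62.5 to 70.1 against 34.7 to 38.2 for endothelial markers and 767 to 907 against 41.5 to 61.3 for erythroid markers.

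The XX minus XY difference at E13.5 was compared with that at E12.5 by testing its change. The difference changed for 4074 of 16190 genes (25.2%), toward XX for 1837 (11.3%) and toward XY for 2237 (13.8%). With total counts alone as the scaling the split was 1213 toward XX and 2918 toward XY, and in limma-trend on log2(TPM + 1) it was 852 and 3240. Without XX E13.5 replicate 1, the difference changed for 3756 genes. Without XY E13.5 replicate 3, 1197 genes changed toward XX. Both comparisons of sexes have libraries of their own, but the change shares the E13.5 libraries with the results above.

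Gata4 changed toward XY, with the larger difference between stages on the XX side. It was at 631 ± 104 CPM in XX and 836 ± 227 in XY at E12.5, and at 168 ± 28.5 and 977 ± 135 at E13.5 (change -2.14, SE 0.31, edgeR adjusted p 5.86e-05). Asns, asparagine synthetase, likewise was at 620 ± 59.0 CPM in XX E12.5 and 167 ± 9.15 in XX E13.5 (change -2.63). Cdkn1c was at 2766 ± 1318 and 495 ± 99 CPM in the same groups (change -2.94, adjusted p 0.00866). Other genes that changed toward XY had higher XY levels at E13.5 than at E12.5. Ctsl, a lysosomal protease, averaged 285 ± 55.0 CPM in XY E12.5 and 967 ± 127 in XY E13.5, Mmp11 at 111 ± 16.9 and 322 ± 44.3, and Unc13b at 74.8 ± 8.74 and 220 ± 32.2. Slc52a3, a riboflavin transporter, was at 11.7 ± 4.78 CPM in XX E12.5 and 1.76 ± 0.282 in XX E13.5, while its XY level went from 47.2 ± 0.459 to 99.1 ± 7.38 (change -3.82). Myo5b, a myosin motor, was at 305 ± 26.3 CPM in XX E12.5 and 130 ± 15.7 in XX E13.5 (change -1.89). Of the 27 cholesterol synthesis genes, 12 changed toward XY and 1 toward XX.

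Changes toward XX were led by genes that were lower in XY at the later stage. Igf2 averaged 15.1 ± 2.88 CPM in XY E12.5 and 2.58 ± 0.656 in XY E13.5, against 143 ± 22.4 and 220 ± 15.3 in XX (change 3.19, SE 0.24, edgeR adjusted p 8.01e-08). Ifitm1 was at 158 ± 9.24 and 18.0 ± 0.632 CPM in XY (change 3.28). Hey1, Pde9a and Gxylt2 showed the same order of levels in XY. Manf was at 306 ± 16.6 and 179 ± 6.75 CPM in XY, but also at 124 ± 3.93 and 226 ± 6.17 CPM in XX. Pde9a and Manf thus averaged higher in XY at E12.5 and higher in XX at E13.5. Fgf9 averaged 60.1 ± 5.90 CPM in XY E12.5 and 20.9 ± 0.381 in XY E13.5 (change 2.60).

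From E13.5 to E15.5 the difference changed for 4184 genes (25.8%), toward XX for 2005 (12.4%) and toward XY for 2179. In a fit of only the 12 libraries of these stages the change was called for 6318 genes. Without XX E13.5 replicate 1 it was called for 3457. Of the 30 cell cycle genes, 26 changed toward XY and none toward XX in the edgeR test. Mcm2, part of the replicative helicase, was at 195 ± 17.1 CPM in XX and 193 ± 6.86 in XY at E13.5, and at 71.2 ± 14.4 and 373 ± 8.07 at E15.5 (change -2.40, SE 0.16, edgeR adjusted p 4.25e-09). The sexes thus overlapped at E13.5 and lay apart at E15.5. Mcm6, Mcm7, Chaf1b and Uhrf1, all of DNA replication or its chromatin, changed the same way, as did Myo7a (-2.06).

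M1ap, a meiosis gene, had the smallest p among changes toward XX, and its XX level went from 2.80 ± 0.696 CPM to 59.9 ± 10.7 at E15.5 (change 6.03). Serpini1 (2.63), Sybu (2.72), Paqr8 (2.68) and Slc16a4 (2.50) followed. Some genes higher in XX at E13.5 were not so later. Cyp11a1 was at 0.673 ± 0.445 CPM in XX and 19.4 ± 10.3 in XY at E15.5 (change -7.19), and Hspa1a at 242 ± 55.1 and 882 ± 18.4 (change -5.58, adjusted p 2.06e-05). Of the 15 dissociation response genes, 10 changed toward XY and none toward XX, and the part of that response in the value of Hspa1a was not tested. Cdkn1c again stood at 2166 ± 337 CPM in XX E15.5 (change 4.96).

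**Figure D5:**
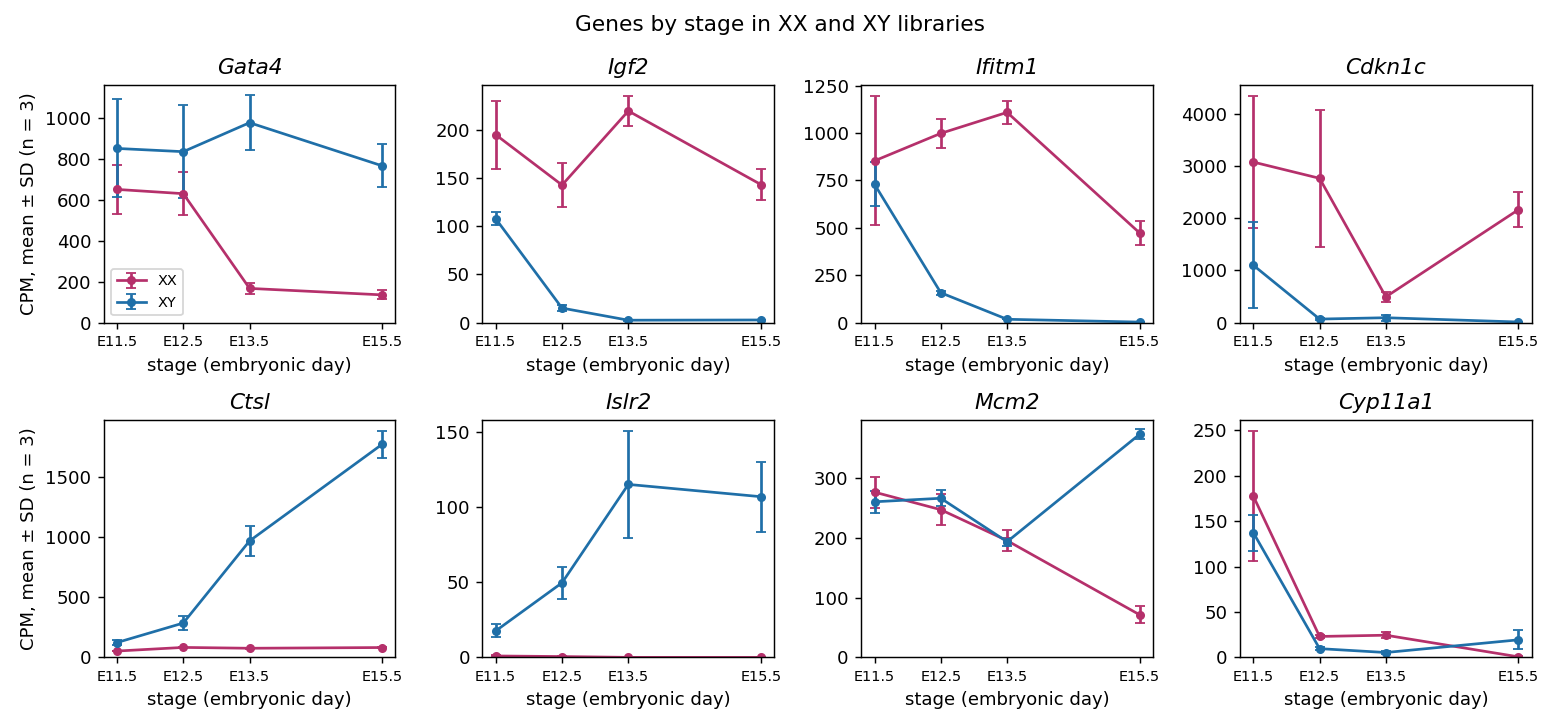
Mean CPM ± SD (n = 3) of 8 genes at the 4 stages in XX and XY libraries, each on its own axis from 0. Gata4 in XX averages 631 CPM at E12.5 but 168 CPM at E13.5, and Mcm2 averages 195 CPM in XX against 193 in XY at E13.5 but 71.2 and 373 CPM at E15.5.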

How the data were processed

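RNA was sequenced from 24 libraries in 8 groups of sex and stage. The authors deposited expected counts and TPM per gene, and the build was mm10 per the submitters' processing notes. The aligner, the counter, its annotation and its use of strand are not given in the sources used here, so reads of overlapping and antisense genes, and of near-identical copies, may be shared. Of the deposited estimated counts 17.5% were not whole, and they were rounded. The deposited TPM values were used only to compare levels between genes and in limma-trend alternatives. Reads carry no molecular identifiers in the sources used here.

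Of 32040 genes, 7739 had no count, and 16190 passed edgeR's filterByExpr over the 8 groups. All libraries were fitted together with edgeR 4.0.16 in R 4.3.3 (TMM scaling, robust quasi-likelihood F test, Benjamini-Hochberg adjustment over all tested genes, 16 residual degrees of freedom). The common biological coefficient of variation was 17.4%. The contrasts were XX minus XY at E13.5 and the change of that difference from E12.5 and to E15.5. Each SE is the absolute log2 difference divided by the square root of its F statistic. It is only a rough guide where a group lies near the floor. The fit was run on counts simulated from its own model with few genes changed. That cannot test its scaling where most genes differ, as at E13.5. Alternatives used limma 3.58.1, DESeq2 1.42.0, other scalings, filters and library sets.

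Gene positions are from GENCODE M21 (GRCm38). The gene lists were written from textbook roles, but members and lists were chosen with earlier results of these data known. Beyond list members, the text names per direction the 12 largest differences (mean of at least 10 CPM in the higher group, no overlap), the 10 highest levels with a log2 difference of at least 2, and the 6 smallest p-values of each change (at least 10 CPM in an E13.5 group). Xist, Tsix, Y-linked genes and pseudogenes were passed over in these rankings. Some items that these rules would name are not reported here. Fgf9, Cdkn1c, Cyp11a1, Hspa1a and Gata4 were named among changes after their values were seen.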

Additional observations from a re-analysis of the deposited data

Results flagged for a closer look

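The XX minus XY difference was not the same at all stages, by the edgeR test of its change with adjustment over all tested genes. It changed for 4074 genes between E12.5 and E13.5 and for 4184 genes between E13.5 and E15.5. Values below are changes on the log2 scale, negative where the difference moved toward XY.

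Between E12.5 and E13.5, the changes toward XY were -2.14 for Gata4, -2.63 for Asns, -2.94 for Cdkn1c, -1.89 for Ctsl, -2.55 for Mmp11, -2.36 for Unc13b, -3.82 for Slc52a3 and -1.89 for Myo5b. Those toward XX were 3.19 for Igf2, 3.28 for Ifitm1, 1.91 for Hey1, 2.36 for Pde9a, 2.53 for Gxylt2, 1.64 for Manf and 2.60 for Fgf9.

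Between E13.5 and E15.5, genes of DNA replication and its chromatin moved toward XY by -2.40 (Mcm2), -1.63 (Mcm6), -1.74 (Mcm7), -2.03 (Chaf1b) and -2.46 (Uhrf1). Myo7a changed by -2.06, Cyp11a1 by -7.19 and Hspa1a by -5.58. Toward XX the changes were 6.03 for M1ap, 2.63 for Serpini1, 2.72 for Sybu, 2.68 for Paqr8, 2.50 for Slc16a4 and 4.96 for Cdkn1c.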

How the results depend on the processing

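Of the values of 29 named changes under the alternatives, all 664 kept direction and call. These changes were chosen for small p-values or after their values were seen, so they do not show how other genes fare. With limma on log2(TPM + 1), where 15147 genes were tested, 2779 of the 4074 changes from E12.5 were also called. For the change to E15.5 it was 3197 of 4184. Of the values of 172 named genes at E13.5, 2804 kept direction and call, 38 lost the call, 11 gained it and 5 reversed. The named genes were list members or were chosen for large differences, high levels or small p-values. They too do not show how other genes fare. Cst8 reversed with limma on log2(TPM + 1) (-0.054) and log2(TPM + 0.1) (-0.0541) and with GC content and length trends removed (-0.46), Pdpn with total counts alone (0.0565) and Insl3 without XY E13.5 replicate 2 (0.583, the highest of values from -1.262 with 1 library left out). None of the 3 was called in the fit reported, but with GC content and length trends removed Cst8 and Pdpn (-0.41) were called toward XY (adjusted p 0.000473 and 0.00519), and Cst8 was called toward XX with only the libraries compared (adjusted p 0.0447). The cause was not tested.

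Requiring a log2 difference of at least 1 left 6071 genes at E13.5 (3188 toward XX, 2883 toward XY), 1831 for the change from E12.5 (569 and 1262) and 2095 for the change to E15.5 (930 and 1165). Genes that changed toward XX from E12.5 numbered 1213 with total counts alone, 852 with limma on log2(TPM + 1) and 833 on log2(TPM + 0.1). In fits of only the libraries compared, 5771 genes changed from E12.5, and 6318 changed to E15.5, 3132 of them toward XX. Without the E11.5 libraries, 5855 genes changed from E12.5 and 5890 to E15.5. List members called toward XX, counting a gene again in each list that holds it, fell in number from 257 to 160 where 10 counts in every library were required. Fewer genes were tested there.

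Leaving out 1 library at a time gave 9850 to 10251 genes at E13.5 (4927 to 5342 toward XX, 4651 to 5133 toward XY). It gave 3179 to 3783 for the change from E12.5 (1197 to 1763 and 1775 to 2278) and 3361 to 4055 for the change to E15.5 (1469 to 1892 and 1734 to 2163). List members called, counted in the same way, were 238 to 255 toward XX and 190 to 204 toward XY. XX and XY libraries share only a replicate number: at E13.5 the deviations of same-numbered libraries correlated at -0.115, 0.0633 and -0.107, and with the replicate block 10591, 3893 and 4061 genes were called. The GC and length trends and the fit without the E11.5 libraries were chosen after seeing the data. Genes near 3 counts per library limit what depth can show.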
